A study of Mus musculus with 21 samples.

Results

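Oxidative phosphorylation is carried out by 4 respiratory complexes and the ATP synthase (complex V) of the inner mitochondrial membrane, and its transcripts were described here in E0771 cells, a mouse mammary cancer cell line. Protein-coding genes were taken by symbol: those beginning mt-, Nduf, Uqcr, Atp5 or Cox4 to Cox8, and the 4 succinate dehydrogenase genes Sdha, Sdhb, Sdhc and Sdhd. The rule gave 107 genes of the 55573 in the table, of which 94 were nuclear and 13 were mitochondrially encoded. After the filter on low counts, 98 of the 107 were tested (88 nuclear and 10 mitochondrially encoded) among 15432 genes.

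Poly(A)-enriched, stranded RNA libraries had been made from 7 groups of 3 libraries, all of cells that carried GFP and were grown in RPMI medium with calf serum. The parental E0771GFP cells were untreated. An empty-vector line and a line overexpressing ZBTB18, a zinc-finger transcription repressor, were derived from them. A further line combined ZBTB18 overexpression with a doxycycline-inducible TGFBR2, the type II TGF-beta receptor, and was given doxycycline (1 mg/mL, as the labels state it) together with either vehicle or TGF-beta1 at 2 ng/mL; it is called here the receptor line. M11 and M12 were untreated lines from spontaneous lung metastases of E0771GFP cells. Each genotype was represented by 1 line, no treatment length or culture date was given, and nothing stated that the 3 libraries of a group came from separate cultures, so the p-values measure the spread between these libraries, which may be technical.

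Complex I (NADH dehydrogenase), complex III (the cytochrome bc1 complex), complex IV (cytochrome c oxidase) and complex V combine subunits made from nuclear genes with core subunits encoded by the mitochondrial genome, whereas complex II (succinate dehydrogenase) is wholly nuclear. The mitochondrial genes are transcribed as long polycistronic RNAs from both strands by the polymerase POLRMT, while each nuclear gene has its own promoter. Most of the mitochondrial messages are then cut apart and polyadenylated. Several nuclear promoters of the pathway are textbook targets of the factors NRF1, GABP, YY1 and the estrogen-related receptors.

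Library totals ran from 24208564 to 90518866 counts. Zbtb18 stood at 25.1 ± 0.910 CPM (counts per library size, scaled by TMM; mean ± SD, n = 3 here and below) in the empty-vector line and 113 ± 9.64 in the ZBTB18 line, and Tgfbr2 at 1.74 ± 0.253 in the ZBTB18 line and 588 ± 32.7 in the receptor line with vehicle, in the direction of the labels. Of the epithelial markers, Krt8 was abundant (107 to 346 CPM over all libraries) while Cdh1 was at most 0.149 CPM and Epcam at most 3.53 CPM in any library. Lung epithelial markers summed to at most 0.19 TPM (transcript level per length, scaled within each library) in any library, M11 and M12 included. Parental replicate 1 stood apart: the ribosomal-RNA-overlapping transcript Gm42418 took 14.0% of its counts and the 2 mitochondrial rRNAs took 0.731%, against at most 0.0918% and 0.0408% in the other libraries. Blood markers were highest in M12 (summed TPM 24.9 to 94.8, against at most 22.8 in other groups), with Cd3e at 0 there. Fibroblast markers summed to 26.9 to 33.0 TPM in parental cells, 86.2 to 108 with empty vector, 137 to 175 with ZBTB18, 34.9 to 41.5 in the receptor line, 240.4 to 344.5 in M11 and 67.9 to 125 in M12; Dcn or Lum was at 0 in every group except M11. Endothelial markers summed to 1.92 to 2.86 TPM in M11, at most 0.19 in parental cells and at most 0.68 in the other groups. The part of these markers in the results was not tested.

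For 3 mitochondrial genes the reads were not on the genes' own rows. The mt-Co2, mt-Co3 and mt-Atp6 rows held 221, 18 and 2427 reads over all 21 libraries, although these genes encode core subunits of complexes IV and V. Reads with these sequences were instead counted on unprocessed pseudogenes on chromosome 1, where a stretch of the mitochondrial genome is inserted in the nuclear genome (mm10, chr1:24611535-24616197, minus strand). Gm28661, the copy of mt-Co2, held 2612064 reads, Gm28437, the copy of mt-Co3, held 2579160, and Gm10925, the copy of mt-Atp6, held 2769493. Over the copy's whole length (681, 783 and 678 bases) each matches the mitochondrial gene with 0 mismatches, so that a read within it cannot be assigned by sequence. The first 60 bases of 2 genes and their copies are shown because they carry this finding; no base differs within a pair, hence none is in capitals.
mt-Co2: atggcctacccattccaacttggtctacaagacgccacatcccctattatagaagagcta
Gm28661: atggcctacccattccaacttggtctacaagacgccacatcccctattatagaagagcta
mt-Co3: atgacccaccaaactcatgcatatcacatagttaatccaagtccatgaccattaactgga
Gm28437: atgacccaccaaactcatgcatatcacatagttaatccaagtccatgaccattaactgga
The 4 further copies in the same insertion matched mt-Nd4, mt-Nd4l, mt-Nd3 and mt-Co1. Gm29216, which differs from mt-Co1 at 6 of 492 bases, took 21.3% of the reads of its pair, and Gm28438, which differs from mt-Nd3 at 1 of 345 bases, took 5.32%. Gm28439 (mt-Nd4) and Gm10222 (mt-Nd4l) took 0.0162% and 0.00122%, although they too have 0 mismatches. Mitochondrial values are therefore given below both from the genes' own rows and with the 7 copies added; mt-Atp8, which has no such copy and overlaps mt-Atp6, was at 0 in all but 1 library and was not tested.

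By share of counts, the mitochondrially encoded genes separated the lines into 3 levels. Their share of all counts was 1.81%, 2.37% and 2.54% in the parental libraries, 3.39%, 2.26% and 1.77% in M11 and 2.41%, 2.59% and 2.39% in M12. It was 0.939%, 1.06% and 0.848% with the empty vector and 0.998%, 1.08% and 0.993% with ZBTB18. In the receptor line it was 0.721%, 0.571% and 0.616% with vehicle and 0.666%, 0.510% and 0.618% with TGF-beta1. The 9 parental and metastasis libraries lay above all 12 vector-carrying libraries, and the 6 receptor-line libraries lay below the empty-vector and ZBTB18 libraries. Neighbours within each level overlapped: M11 with M12 and parental, empty vector with ZBTB18, and vehicle with TGF-beta1. As a share of TPM, parental replicate 1 (2.14%) lay close to ZBTB18 replicate 2 (2.12%). The mean effective transcript length was 1113 to 1369 bases in the parental and metastasis libraries and 1332 to 1426 in the vector-carrying ones. Its part in the levels was not tested.

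**Figure D1:**
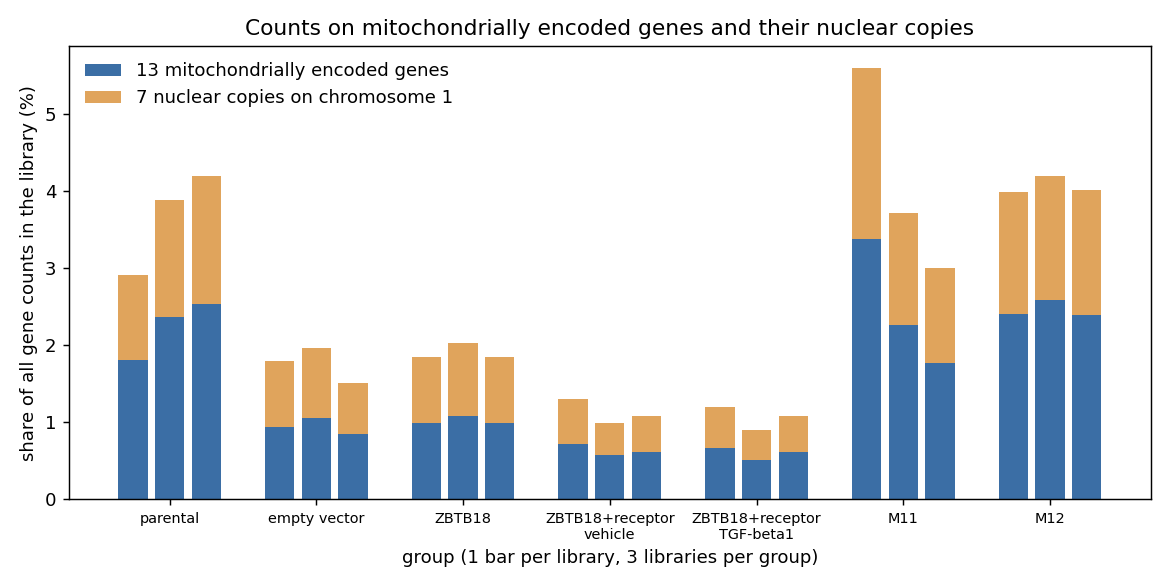
Share of all gene counts (%) on the 13 mitochondrially encoded genes (blue) and on their 7 nuclear copies (orange), 1 bar per library, for the 7 groups. With the copies added the parental and metastasis libraries lie between 2.91% and 5.61%, the empty-vector and ZBTB18 libraries between 1.52% and 2.03%, and the receptor-line libraries between 0.899% and 1.30%.

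Relative to nuclear subunits the same order held. The summed TPM of mitochondrially encoded genes with their copies, divided by the summed TPM of nuclear subunits, was 2.76 ± 0.433 in parental cells, 1.93 ± 0.194 with empty vector, 2.22 ± 0.147 with ZBTB18, 1.43 ± 0.198 with receptor and vehicle, 1.34 ± 0.177 with TGF-beta1, 3.50 ± 0.712 in M11 and 3.53 ± 0.303 in M12. TPM is a level per transcript length, and on that scale the nuclear subunits took 1.95% to 2.69% of all TPM over the 21 libraries. This nuclear share was also lower in the receptor line (1.95% to 2.02%) than with empty vector (2.28% to 2.36%) or ZBTB18 (2.16% to 2.21%). Parental libraries alone ran from 1.97% to 2.69%. By the ratio, the lowest parental library (replicate 2, 2.46) and the highest ZBTB18 library (replicate 2, 2.38) were close to each other.

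Between the empty-vector and parental cells, 7 of the 10 tested mitochondrial rows fell (edgeR quasi-likelihood test, Benjamini-Hochberg adjusted over 15432 genes), and 10 of 12 fell once the copies were added, with a median log2 change of -0.93. In this comparison 58.0% of all tested genes were called, 28.9% as higher and 29.0% as lower. With the copies added, mt-Co1, the catalytic subunit of complex IV, was 17352, 17534 and 14720 CPM in the parental libraries and 4994, 5730 and 4310 with the empty vector. Its log2 change was -1.72 ± 0.183 (SE; adjusted p = 2.44e-07), a 3.30-fold lower level, and the groups did not overlap. The membrane-arm subunit of complex I mt-Nd4 was 1983, 2516 and 2902 CPM against 865, 978 and 782 (log2 change -1.50 ± 0.190, adjusted p = 2.42e-06). At the other end, mt-Nd3, also of complex I, was 369, 388 and 536 CPM in parental and 553, 518 and 530 with empty vector, a log2 change of 0.31 ± 0.155 (adjusted p = 0.0953) that did not pass. The complex III subunit mt-Cytb did not pass either (-0.65 ± 0.289, adjusted p = 0.0616); its parental libraries ranged from 1309 to 3231 CPM and overlapped those of the empty vector.

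Between the receptor line with vehicle and the ZBTB18 line, 10 of 12 mitochondrial genes fell again with the copies added (median log2 change -0.77), and 7 of 10 on their own rows; 38.8% of all tested genes were called here, 19.5% as higher and 19.3% as lower. The order among the genes differed from that above. The largest falls were in mt-Nd1, a membrane-arm subunit of complex I, at 1045, 1007 and 861 CPM with ZBTB18 and 428, 315 and 372 in the receptor line (log2 change -1.38 ± 0.191, adjusted p = 1.03e-05), and in mt-Cytb, at 1536, 1622 and 1295 against 747, 458 and 577 (-1.32 ± 0.292, adjusted p = 0.00174). mt-Co1 changed by -0.47 ± 0.179 (adjusted p = 0.0419). mt-Nd2 and mt-Nd3 did not pass, at -0.44 ± 0.189 (adjusted p = 0.0683) and -0.39 ± 0.155 (adjusted p = 0.0509). The 2 lines differ by the receptor transgene and by doxycycline together, and each is a single line. Zbtb18 also stood lower in the receptor line with vehicle, at 82.9 ± 6.49 CPM against 113 ± 9.64 in the ZBTB18 line. The parts of these differences cannot be told apart here. Whether the pattern over genes differs between these 2 comparisons was not tested.

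**Figure D2:**
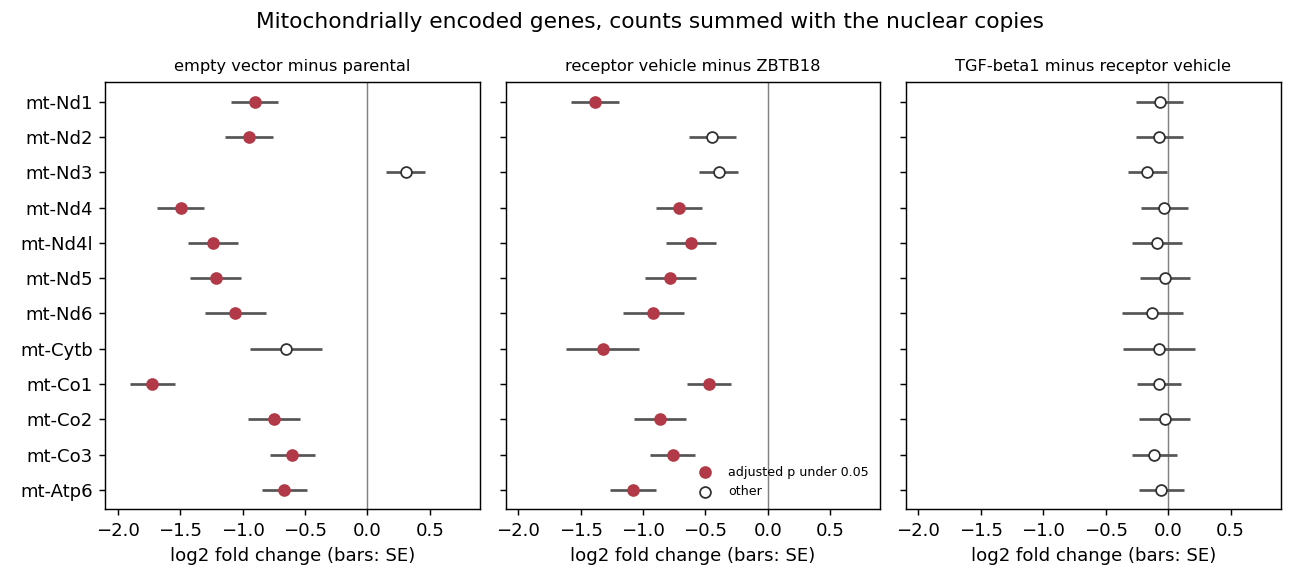
Log2 fold change (x axis, bars show the SE) of 12 mitochondrially encoded genes, with the counts of the nuclear copies added, in 3 comparisons of 3 libraries against 3; filled points passed an adjusted p of 0.05. In the left and middle panels 10 genes each lie below 0 and are filled, mt-Nd3 and mt-Cytb being open on the left and mt-Nd2 and mt-Nd3 in the middle; on the right no point is filled.

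No mitochondrially encoded gene was called between ZBTB18 and empty vector, between TGF-beta1 and vehicle, between either metastasis line and parental cells or between M11 and M12, on its own row or with the copies added (edgeR; DESeq2 also called 0). Other settings did call some. In M11 against parental cells mt-Cytb, mt-Nd2 and mt-Nd3 were higher on log2(TPM + 1) and log2(TPM + 0.1), mt-Nd2 and mt-Nd3 with the length offset, alone or with the chromosome offset, mt-Cytb with limma-voom, and mt-Cytb and mt-Nd2 with no filter. With no filter mt-Atp6, mt-Cytb and mt-Nd2 were also higher in M11 than in M12, mt-Atp6 was lower in M12 than in parental cells, and with ZBTB18 mt-Nd6 was higher and mt-Atp6 lower; on the 6 libraries alone mt-Nd2 was lower with ZBTB18. At an unadjusted p under 0.05 there were 2 in M11 against parental cells, mt-Nd2 and mt-Cytb, and the nearly empty mt-Atp6 row in M12 against parental cells and in M11 against M12. Among these, the lowest adjusted p in M11 against parental cells belonged to mt-Nd2 (log2 change 0.42 ± 0.189, adjusted p = 0.0812), with M11 libraries at 3505, 2178 and 1697 CPM and parental ones at 1498, 1788 and 2225. M11 replicate 1 had the highest mitochondrial share of the 21 libraries (5.61% of counts with the copies), and the other M11 libraries overlapped the parental ones. Over the 7 group means of log2(CPM + 0.5), the 5 non-member genes whose profile was most like the mean of the 10 tested mitochondrial genes were Hnrnpdl (Pearson r = 0.998), Gm49027 (0.998), Gm21887 (0.996), Snhg3 (0.993) and Gm3507 (0.991). Of these Hnrnpdl, an RNA-binding protein gene, stood at 356 in parental, 248 with empty vector, 189 with receptor and vehicle and 362 in M11 (geometric means of CPM + 0.5), while Gm49027 and Gm3507 were at most 0.706 and 1.31. Among the members, mt-Nd3 followed the mean profile least (r = 0.493), then the nearly empty mt-Atp6 row (0.747), and the other 8 had r of 0.967 or more. Each of these 10 genes is itself part of that mean, which raises its r. The 7 group means share libraries and scaling factors, and the values are descriptions.

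Nuclear subunits spanned a wide range of levels. Averaged over the 21 libraries, the most abundant nuclear member was Atp5b, the catalytic beta subunit of the ATP synthase, at 1496 TPM, followed by Atp5md at 926 TPM, a small membrane subunit of the same complex. Within complex I the nuclear subunits ran from Ndufa13 (62.7 TPM) to Ndufa7 (362 TPM), within complex III from Uqcrc2 (106 TPM) to Uqcr10 (571 TPM), and within complex II from Sdhc (82.3 TPM), a membrane anchor, to Sdhd (241 TPM), the other anchor. The 8 complex I assembly factors were lower than all nuclear complex I subunits, from 11.2 TPM for Ndufaf3 to 60.7 for Ndufaf2. The mitochondrially encoded rows reached 7084 TPM for mt-Co1 and 3985 TPM for mt-Nd3.

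Complex IV carried the tissue isoforms, and the ubiquitous ones made up nearly all of each pair. Cox4i1, Cox6b1, Cox6a1, Cox7a2 and Cox8a stood at 715, 715, 429, 264 and 498 TPM. Their tissue-restricted counterparts Cox8b and Cox8c were listed at 0 in every library, and Cox4i2, Cox6b2 and Cox7b2 averaged at most 0.104 TPM; these 5 were not tested. Cox6a2 and Cox7a1, the heart and muscle forms, averaged 0.820 and 3.67 TPM. Ndufa4l2, known as a hypoxia-induced relative of the complex IV subunit Ndufa4, averaged 1.29 TPM against 517 for Ndufa4. A second row for Atp5o (ENSMUSG00000116933.1), whose span on chromosome 16 overlaps the first, was 0 throughout and was not tested.

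Promoter sequences from RefSeq (GRCm38.p6) were found for 77 of the 94 nuclear members, as windows of 250 bases before to 50 after the start. On either strand the NRF1 motif occurred for 26.0% of these genes against 5.19% of all 27025 genes with a window, the YY1 motif AAGATGGC for 14.3% against 3.19%, the estrogen-related receptor motif AAGGTCA for 10.4% against 5.38%, the GABP motif CCGGAAGT for 6.49% against 4.31%, and the hypoxia motif ACGTG for 23.4% against 21.8%. A match is a description of letters, not of binding, and a member row was counted once whatever its number of windows. The 2 Atp5o rows share 1 window, which holds 1 NRF1 match, and both rows were counted. The stretches before 2 members described below are given as examples, from the minus strand of mm10 (GRCm38.p6), with the named matches in capitals: a GABP match at Uqcr11 (chr10:80406831-80407071) and 2 NRF1 matches at Cox6a1 (chr5:115348982-115349208).
Uqcr11: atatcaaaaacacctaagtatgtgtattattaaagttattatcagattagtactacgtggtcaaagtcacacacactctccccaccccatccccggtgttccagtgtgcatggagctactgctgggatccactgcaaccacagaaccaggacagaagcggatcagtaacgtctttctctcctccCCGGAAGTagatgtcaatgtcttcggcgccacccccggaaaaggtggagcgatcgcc
Cox6a1: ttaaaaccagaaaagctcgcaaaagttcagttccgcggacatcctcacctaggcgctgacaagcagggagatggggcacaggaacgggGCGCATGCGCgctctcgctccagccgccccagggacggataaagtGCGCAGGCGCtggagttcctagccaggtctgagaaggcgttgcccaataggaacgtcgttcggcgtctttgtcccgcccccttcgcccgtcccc

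All but 1 of the 98 tested members differed somewhere among the 7 groups (97 of 98 at an adjusted p under 0.05 by edgeR's F-test, Ndufa6 being the exception at 0.0638), as did 92.7% of all tested genes.

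**Figure D3:**
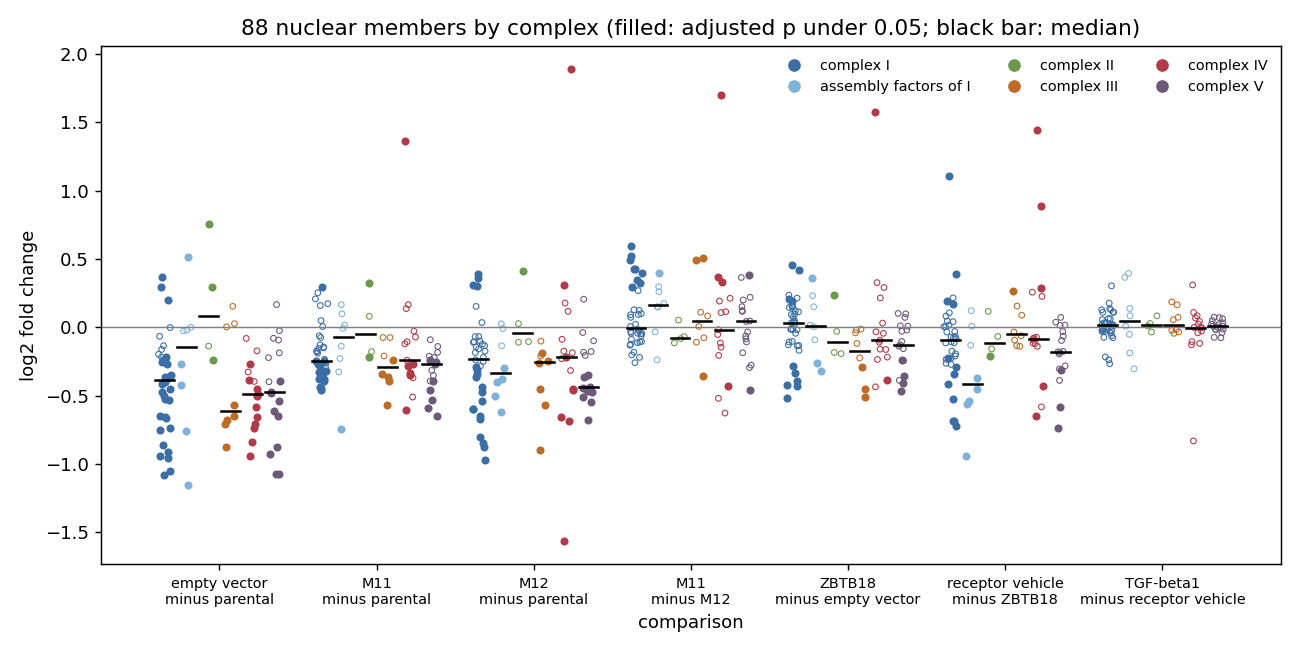
Log2 fold change (y axis) of the 88 tested nuclear members in 7 comparisons (x axis), split by complex and for the complex I assembly factors; filled points passed an adjusted p of 0.05 and black bars are medians. The medians lie below 0 in the 3 comparisons with parental cells, except that of complex II with empty vector (0.08), and no point is filled for TGF-beta1 against vehicle.

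In the empty-vector line 58 of 88 nuclear members were lower than in parental cells and 6 were higher, with a median log2 change of -0.40 against -0.02 over all genes with the same fit. Of all tested genes, 29.0% were called lower and 28.9% higher. Complex IV had 11 of 15 lower and 0 higher, complex I 27 of 36 lower and 3 higher, and complex V 10 of 17 lower and 0 higher, while complex II had 2 of 4 higher. These counts moved with transcript length, and its part in them was not tested beyond the offsets given here. Genes with an effective length of 700 bases or less had a median log2 change of -0.61 over all 2211 such genes and of -0.48 over the 61 members among them, and genes over 4000 bases had 0.38. The mean effective length per library was 1113 to 1229 bases in parental cells and 1332 to 1388 with the empty vector. With an offset that removed the length trend, 22 nuclear members were lower and 32 higher, and on log2(TPM + 1) 20 were lower and 23 higher. Cytosolic ribosomal protein genes, also short, had 73 of 81 lower (median -0.76) before any such offset.

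**Figure D4:**
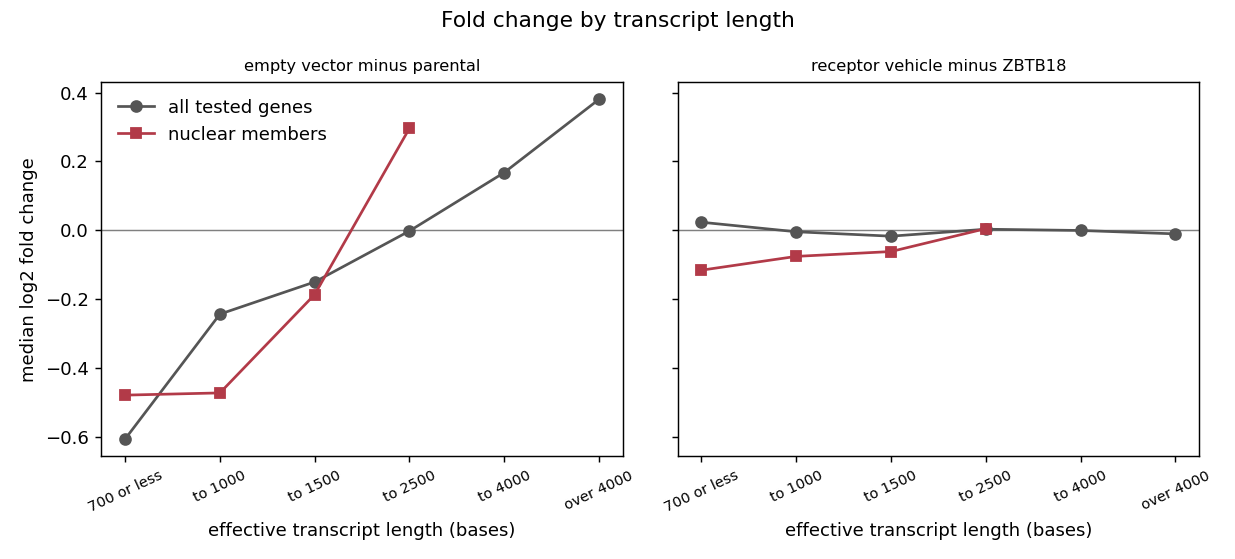
Median log2 fold change (y axis) in classes of effective transcript length in bases (x axis) for all tested genes (grey circles) and nuclear members (red squares). In empty vector against parental cells the grey line climbs from -0.61 to 0.38, and in the receptor line against ZBTB18 it stays between -0.02 and 0.02; members have no gene over 2500 bases.

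The mitochondrial rows moved with length to differing degrees. The length offset was run on the genes' own rows only, without the copies, and mt-Nd4l and mt-Nd6 lost their calls with it. With the length offset 5 of the 7 called rows were still called lower (mt-Co1 at -1.55, mt-Nd4 at -1.34, mt-Nd5 at -1.14, mt-Nd2 at -0.69 and mt-Nd1 at -0.60 on the log2 scale), and on log2(TPM + 1) 5 rows were lower. mt-Nd3, whose effective length is 146 bases, was called higher in both, at 1.09 and 0.96, against 0.30 and not called in the main fit.

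Single nuclear genes stood out from the shift. Sdha, the flavoprotein that oxidises succinate in complex II, was 138, 120 and 145 CPM in parental cells and 233, 220 and 224 with the empty vector (log2 change 0.75 ± 0.0995, adjusted p = 3.07e-06). It stayed between 193 and 234 CPM in every vector-carrying library and between 120 and 171 in every parental and metastasis library. Sdhc rose by 0.30 ± 0.0720 (adjusted p = 0.00153; 0.12 and not called with the chromosome offset), whereas Sdhd fell by 0.24 ± 0.0909 (adjusted p = 0.0288; 0.14 and not called on log2(TPM + 1)) and Sdhb, the iron-sulfur subunit, did not pass (-0.14 ± 0.0725, adjusted p = 0.109) but was called higher on log2(TPM + 1), at 0.24 (limma, adjusted p = 0.00612). Ndufs1, a core subunit of complex I, rose by 0.30, and Ndufaf3, an assembly factor, by 0.51. Ndufs1 and Sdhc are on chromosome 1, where 40.2% of the other genes were also higher (median 0.17). Ndufv3, an accessory subunit of the NADH-binding module, was 39.4, 51.6 and 35.5 CPM in parental cells and 20.1, 21.2 and 18.4 with the empty vector, a log2 change of -1.08 ± 0.121 (adjusted p = 4.24e-07). The assembly factor Ndufaf6 fell by 1.16 on the log2 scale, from 18.3, 19.2 and 12.2 CPM in parental cells to at most 7.83 CPM.

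ZBTB18 overexpression against the empty vector changed 23 of 88 nuclear members, 7 higher and 16 lower, a share of 26.1% where 28.4% of all tested genes were called (14.0% higher and 14.5% lower). Lower were Ndufs6, a complex I accessory subunit (51.6, 52.2 and 52.0 CPM with empty vector, 39.4, 35.3 and 34.0 with ZBTB18; log2 change -0.52 ± 0.0967, adjusted p = 0.000324), and Uqcr11 and Uqcrb of complex III (-0.51 ± 0.122, adjusted p = 0.00299, and -0.45 ± 0.0916, adjusted p = 0.000745). Atp5d, the delta subunit of the ATP synthase, fell from 178, 201 and 193 to 142, 131 and 142 CPM (-0.46 ± 0.0814, adjusted p = 0.000178). Higher were Ndufv1, the NADH-oxidising subunit of complex I (123, 125 and 119 against 167, 161 and 163 CPM; 0.42 ± 0.0706, adjusted p = 0.000105), Ndufv3 (0.46 ± 0.120, adjusted p = 0.00616), the assembly factor Ndufaf7 (0.36 ± 0.0943, adjusted p = 0.00615) and Sdhc (0.23 ± 0.0717, adjusted p = 0.0173). The groups did not overlap for any of these, but the genes were named as called members with large changes, so this is no separate support. With 1 library left out, 3 or 4 members were higher (empty-vector replicate 1 or 2, or ZBTB18 replicate 1 or 3) and 9 or 10 lower (empty-vector replicate 1 or 2, or ZBTB18 replicate 2 or 3).

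The calls lay on a few chromosomes. Of the 16 lower members 6 were on chromosome 13 (of 7 members there) and 5 on chromosome 10 (of 6), where 39.1% and 36.4% of the other tested genes were also lower and their median log2 changes were -0.29 and -0.26. On chromosome 19, the site of Ndufv1, the other genes had a median of 0.28. Over the 88 members the log2 change had a Pearson r of 0.597 and a Spearman rho of 0.690 with the median of the other genes on the same chromosome, a description over members that share libraries. With each chromosome's median subtracted as an offset, 4 members were higher and 2 lower, and 5 of the 23 calls were kept.

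**Figure D5:**
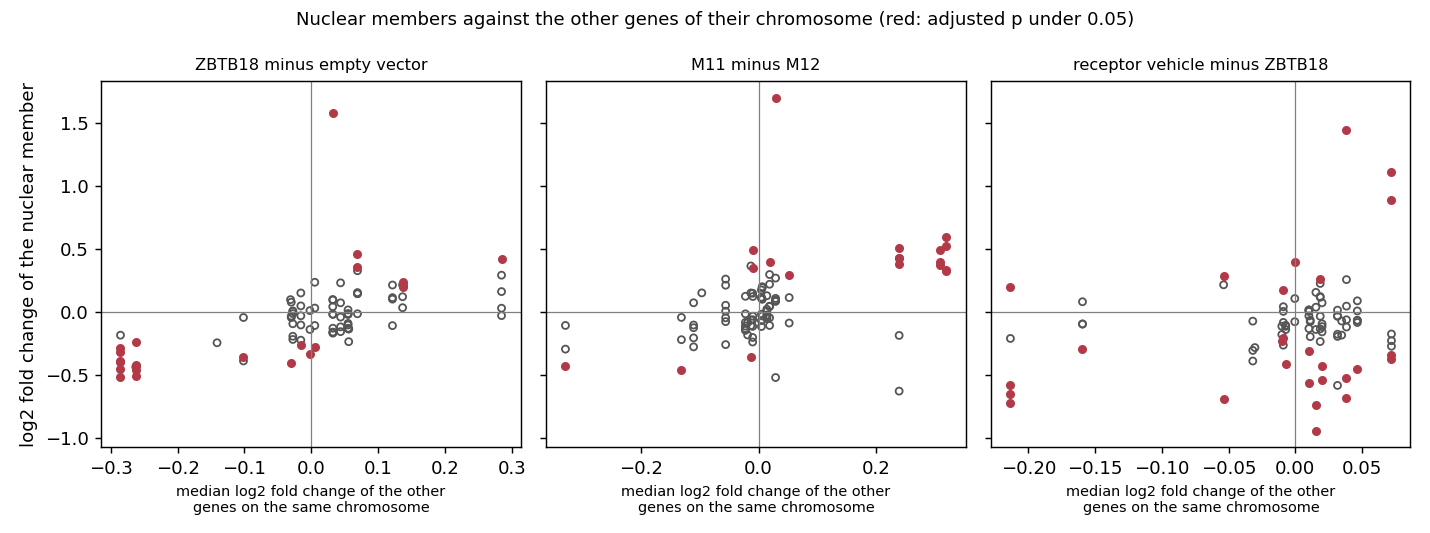
Log2 fold change of each nuclear member (y axis) against the median log2 fold change of the other tested genes on its chromosome (x axis) in 3 comparisons; red points passed an adjusted p of 0.05. In ZBTB18 against empty vector and in M11 against M12 high and low members lie with high and low chromosomes (r = 0.597 and 0.461), while in the receptor line against ZBTB18 r is 0.205.

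The receptor line with vehicle differed from the ZBTB18 line in 27 nuclear members, 8 higher and 19 lower (30.7% of 88, where 38.8% of all tested genes were called). The change had a Spearman rho with length of 0.146 over members and -0.0230 over all genes, and 32 of the 34 calls including the mitochondrial rows were kept with the chromosome offset. Ndufv3 rose from 26.7, 28.7 and 26.7 to 58.9, 58.4 and 59.6 CPM (log2 change 1.11 ± 0.119, adjusted p = 2.63e-07). Cox7a2l, which acts in the assembly of respiratory supercomplexes, rose from 179, 181 and 184 to 331, 347 and 331 CPM (0.89 ± 0.182, adjusted p = 0.000699), and Ndufb11 rose by 0.39 ± 0.0809 (adjusted p = 0.000589). Both Ndufv3 and Cox7a2l had fallen in the empty-vector line relative to parental cells, Cox7a2l by 0.84 ± 0.182 (adjusted p = 0.000682). Lower were the assembly factor Ndufaf8 (14.5, 11.4 and 11.2 against 6.37, 7.51 and 5.40 CPM; -0.94 ± 0.168, adjusted p = 0.000143), the ATP synthase c-subunit gene Atp5g1 (-0.74 ± 0.153, adjusted p = 0.000751), Ndufb8 (-0.72 ± 0.115, adjusted p = 4.1e-05) and Cox8a (-0.65 ± 0.112, adjusted p = 9.8e-05). Of the 3 genes for the same c subunit, Atp5g1 and Atp5g3 (-0.31, adjusted p = 0.0317) fell and Atp5g2 did not pass (-0.10, adjusted p = 0.475). Of the 8 complex I assembly factors 5 fell and 0 rose. Without ZBTB18 replicate 2 or 3 or vehicle replicate 2 or 3, 4 or 5 members were higher in place of 8.

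TGF-beta1 against vehicle in the same line changed 0 of 98 members by edgeR's quasi-likelihood test, where 1.91% of all tested genes were called (1.26% higher and 0.654% lower); 7 members had an unadjusted p under 0.05, and DESeq2 called 1 and the fit on the 6 libraries alone 3. The nuclear median log2 change was 0.01. Nearest were Ndufaf1, an assembly factor, at 11.5 ± 0.824 CPM with vehicle and 14.8 ± 0.0930 with TGF-beta1 (log2 change 0.37 ± 0.111, adjusted p = 0.103), Ndufs3 (-0.24 ± 0.0795, adjusted p = 0.142) and Ndufab1 (0.30 ± 0.104, adjusted p = 0.155). For mt-Co1 with its copies the 2 groups ranged from 3800 to 4674 and from 3402 to 4432 CPM and overlapped.

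In the metastasis lines the nuclear members were lower than in parental cells more often than higher: 36 lower and 3 higher in M11 (median log2 change -0.24, where 40.7% of all tested genes were called, 20.8% as higher and 20.0% as lower) and 43 lower and 7 higher in M12 (median -0.24, where 50.1% were called, 24.9% as higher and 25.2% as lower). Both comparisons share the parental libraries. As above they moved with length, less strongly: with the length offset 12 were lower and 9 higher in M11 and 30 lower and 10 higher in M12, and on log2(TPM + 1) 5 lower and 9 higher, and 15 lower and 13 higher. Leaving out 1 library moved the count of lower members in M11 between 10 (without parental replicate 2) and 47 (without parental replicate 3 or M11 replicate 1), and it was 15 without M11 replicate 3; without parental replicate 3, 5 were higher. With the length offset the M11 count of called members fell from 39 to 23, of which 15 had been called before.

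Atp5b was 1724, 1787 and 1670 CPM in parental cells and 1104, 1072 and 1133 in M11 (log2 change -0.65 ± 0.0810, adjusted p = 1.64e-06), and Atp5a1, the other large subunit of the catalytic head, fell by 0.59 ± 0.0931 (adjusted p = 2.76e-05). Cox6a1 was lower in M11 (112, 107 and 110 CPM) than in parental cells (166, 183 and 151; -0.60 ± 0.0875, adjusted p = 1.08e-05) and than in M12 (148, 145 and 149; -0.43 ± 0.0873, adjusted p = 0.000601). It is on chromosome 5, where 41.5% of the other genes were also lower in M11 than in parental cells (median -0.28). Against M12, 47.0% of the other genes there were lower in M11 (median -0.33). In M12 the largest falls above 1 CPM were in the complex I subunits Ndufb2 (54.8, 72.5 and 57.8 against 32.7, 30.5 and 31.2 CPM; -0.97 ± 0.116, adjusted p = 5.83e-07), Ndufa12 (-0.87 ± 0.0913, adjusted p = 8.40e-08) and Ndufa5 (-0.84 ± 0.0951, adjusted p = 2.41e-07), and in Uqcr11 (-0.90 ± 0.122, adjusted p = 2.88e-06). Ndufb2 and Ndufa5 are on chromosome 6 and the other 2 on chromosome 10, where 44.5% and 46.6% of the other genes were lower, with medians of -0.30 and -0.31; with the chromosome offset the 4 changes were between -0.70 and -0.57 and all were still called. Sdhc was higher in both lines (0.33 ± 0.0722 in M11 and 0.41 ± 0.0721 in M12, adjusted p = 0.00102 and 7.15e-05), as were most members of chromosome 1 in M12, where 5 of 6 members and 51.5% of the other genes were higher. With the chromosome offset Sdhc in M11 was at -0.05 on the log2 scale and was not called.

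Between M11 and M12, 16 nuclear members were higher in M11 and 3 lower (35.5% of all tested genes were called, 17.7% as higher and 17.8% as lower). The 16 included all 4 tested members on chromosome 6, all 3 on chromosome 8 and 4 of 6 on chromosome 10, where 44.7%, 44.4% and 37.5% of the other genes were also higher; with the chromosome offset 7 were higher and 4 lower. Ndufb2 was 55.1, 47.0 and 40.2 CPM in M11 against 32.7, 30.5 and 31.2 in M12 (0.59 ± 0.116, adjusted p = 0.000404) and Atp5f1, a stalk subunit of the ATP synthase, was lower in M11 (-0.46 ± 0.101, adjusted p = 0.00109). With the replicate number as a block 5 were lower in place of 3, and 8 and 5 were lower without M11 replicate 1 and without M12 replicate 2.

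The 2 muscle isoforms moved at very low levels. Cox7a1 was 0.340, 0.638 and 0.369 CPM in parental cells, 0.579, 0.564 and 0.326 in M11, 0.208, 0.172 and 0.0882 in M12, between 0.274 and 0.401 in the empty-vector and ZBTB18 libraries and between 0.756 and 1.16 in the receptor line. It was higher in M11 than in M12 by 1.70 ± 0.370 (log2, adjusted p = 0.00106) and in the receptor line with vehicle than with ZBTB18 alone by 1.45 ± 0.294 (adjusted p = 0.000536). Cox6a2 was between 0.0547 and 0.185 CPM in the parental and empty-vector libraries and between 0.219 and 0.623 in all other libraries. Its log2 change was 1.57 ± 0.474 with ZBTB18 against empty vector (adjusted p = 0.0156), 1.37 ± 0.525 in M11 (adjusted p = 0.0422) and 1.89 ± 0.487 in M12 (adjusted p = 0.00278) against parental cells. Striated muscle markers summed to 0.30 to 0.51 TPM in parental cells, 2.87 to 3.45 TPM in M11 and 3.40 to 5.65 TPM in M12. They summed to 0.61 to 0.79 TPM with empty vector, 0.45 to 0.83 with ZBTB18 and 0.49 to 1.29 in the receptor line. Actc1 was at 0 in every group, and the part of these markers in the isoform values was not tested.

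Other genes of the pathway were read from lists. Between empty vector and parental cells the mitochondrial ribosomal proteins had 48 of 78 lower and 3 higher, and assembly factors outside the symbol rule with cytochrome c had 18 of 38 lower and 6 higher, led by the complex IV assembly factor Pet100 (-1.14 ± 0.148, adjusted p = 2.42e-06); these too were not corrected for length. Between the receptor line and ZBTB18, 14 of 38 assembly factors were lower and 1 higher, 20 of 78 mitochondrial ribosomal proteins were lower and 1 higher, and 10 of 23 glycolysis genes were higher and 1 lower. The complex III assembly factor Uqcc3 fell to 5.18 ± 0.269 CPM (-1.88 ± 0.225, adjusted p = 1.63e-06), while Hk2, a hexokinase, rose from 83.4 ± 4.12 to 176 ± 3.81 CPM (1.07 ± 0.131, adjusted p = 1.51e-06). Of 19 genes for maintenance and transcription of the mitochondrial genome, 5 were higher and 1 lower in that comparison (where 19.5% and 19.3% of all tested genes were called so), and 1 was higher and 9 lower with empty vector against parental cells (28.9% and 29.0% of all genes; median log2 change -0.22). In the receptor line Tfb1m, a mitochondrial rRNA methyltransferase, rose by 0.57 ± 0.141 (adjusted p = 0.00284). Polrmt fell in M12 against parental cells (49.0 ± 5.85 to 23.9 ± 2.51 CPM, log2 change -1.04 ± 0.0962, adjusted p = 1.57e-08). With ZBTB18, Tfam, the mitochondrial transcription and packaging factor on chromosome 10, fell by 0.29 ± 0.0595 (adjusted p = 0.000929) against the empty vector. Tested non-member genes on chromosome 10 had a median log2 change of -0.26 in that comparison. The part of Polrmt or Tfam in the mitochondrial levels was not tested. The co-activator gene Ppargc1a was at most 0.113 CPM in any library.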

How the data were processed

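Gene-level RNA-seq values of 21 libraries (7 groups of 3) were used. Per the submitters' processing notes, reads were trimmed with Trim Galore and handled with STAR 2.7.1a, GATK 4.1.2.0 and RSEM on mm10; the annotation release and each tool's settings are not given in the sources used here. The deposited tables hold RSEM expected counts (1.28% of values were not whole and were rounded), TPM and FPKM per gene, and the authors' FPKM served only to recover effective lengths. The 92 spike-in rows, all at 0, were left out. Genes with enough counts by edgeR's filter (15432) were fitted with edgeR 4.0.16 in R 4.3.3 (TMM scaling, quasi-likelihood test, a mean for each of the 7 groups, with 14 residual degrees of freedom from the 21 libraries) and p-values were adjusted by Benjamini-Hochberg with a threshold of 0.05. limma 3.58.1 on log2(TPM + 1) or log2(TPM + 0.1) and DESeq2 1.42.0 were alternatives. CPM are counts per library size scaled by TMM, and a fold change on log2(TPM + 1) understates the change of low genes.

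Same-numbered libraries deviated together (r of 0.235 to 0.538 for TGF-beta1 and vehicle, 0.221 to 0.440 for M11 and M12), a pairing seen in the data and not stated in the labels. Positions come from GENCODE vM21 (mm10). Copies of mitochondrial genes were found by shared 31-base words (over 50% of the copy's words), with positions and transcripts from that release. The edgeR fit was tested on simulated counts for ZBTB18 against empty vector over 15432 genes: 37 of 60 genes changed by 0.5 on the log2 scale were called, 63 of 73 by 1 and 65 of 67 by 2. The changed genes were drawn from those averaging over 1 CPM, and the other groups were simulated without differences. These rates therefore do not cover genes below 1 CPM. The members and lists were chosen with earlier results of these data known, so their directions are not independent support. Genes named in the text are the mitochondrial members, the Sdh genes, the isoform sets, in each comparison called members among the 4 highest and 4 lowest changes with at least 1 CPM, the highest and lowest in TPM per complex, and up to 2 called genes each way per list; Ndufv3 and Ndufaf6 in the empty-vector line, Ndufb8, and the 3 nearest members under TGF-beta1 were chosen after their values were seen. Sums with the nuclear copies and offsets for length and chromosome were added after seeing the data. Depth limits the isoforms near or below 1 CPM, and intervals cover the spread between libraries only. Of the genes the naming rule gives, 1 is not reported here.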

Additional observations from a re-analysis of the deposited data

Results flagged for a closer look

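The change of Cox7a1, the heart and muscle isoform of a complex IV subunit, from parental cells differed between the 2 metastasis lines. Against parental cells it was 0.14 ± 0.321 on the log2 scale in M11 (adjusted p = 0.766) and -1.56 ± 0.369 in M12 (adjusted p = 0.00132), and the difference between the lines, tested directly, was 1.70 (edgeR, adjusted p = 0.00106). All 3 M11 libraries (0.326 to 0.579 CPM) were above all 3 M12 libraries (0.0882 to 0.208 CPM), levels of few reads per library. No group had more than 3 libraries, so no library was tested as an outlier within its group.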

How the results depend on the processing

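Counts here are members called higher or lower over all 98 tested, in place of 7 and 16 with ZBTB18 against empty vector, 0 and 0 with TGF-beta1 against vehicle, 3 and 36 in M11 and 7 and 43 in M12 against parental cells, 16 and 3 in M11 against M12, 6 and 65 with empty vector against parental cells, and 8 and 26 with the receptor line against ZBTB18. Counts not given stayed within 1.5 times. On log2(TPM + 1), 4 were higher with ZBTB18, 12 higher and 5 lower in M11, 13 higher and 15 lower in M12, 6 lower in M11 against M12, 24 higher and 25 lower with empty vector, and 5 higher in the receptor line; log2(TPM + 0.1) gave the same counts except 6 lower in M11. The former moved the median of all genes by 0.14 in M11, 0.17 in M12 and 0.21 with empty vector. With the length offset, 1 was higher with TGF-beta1, 11 higher and 12 lower in M11, 6 lower in M11 against M12, and 33 higher and 27 lower with empty vector. With the chromosome offset, 4 were higher and 2 lower with ZBTB18, 1 higher in M11, 2 higher in M12, 7 higher in M11 against M12 and 3 higher with empty vector. With both offsets, 3 were higher with ZBTB18, 1 higher with TGF-beta1, 10 lower in M11, 3 higher and 23 lower in M12, 5 lower in M11 against M12, and 29 higher and 26 lower with empty vector. With limma-voom, 7 were higher and 11 lower in M11, 28 lower in M12 and 5 higher in the receptor line. With no filter, 5 were higher in M11 and 6 lower in M11 against M12. DESeq2 called 1 higher with TGF-beta1. Fitted on the 6 libraries of a comparison alone, 12 were higher and 25 lower with ZBTB18, 2 higher and 1 lower with TGF-beta1, 1 higher and 7 lower in M11, 28 lower in M12, 10 higher in M11 against M12 and 40 lower in the receptor line. The cause of these moves was not tested.

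With the replicate number as a block, M11 against M12 had 5 lower, and no other count moved by over 1.5 times. Same-numbered libraries did not all deviate together outside TGF-beta1 with vehicle and M11 with M12. Their r ran from -0.04 to 0.01 for ZBTB18 with empty vector and from -0.01 to 0.21 for empty vector with parental. It ran from -0.13 to 0.40 and from -0.22 to 0.29 for M11 and M12 with parental, and from -0.06 to 0.30 for vehicle with ZBTB18. Whether the numbers pair any of these groups could not be settled.

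Leaving out 1 library gave 3 to 5 higher and 9 to 13 lower with ZBTB18, 0 to 0 with TGF-beta1, 2 to 5 higher and 10 to 47 lower in M11, 6 to 9 and 33 to 55 in M12, 12 to 23 and 3 to 8 in M11 against M12, 5 to 7 and 56 to 69 with empty vector, 4 to 7 and 18 to 24 in the receptor line, and 95 to 99 members that differed among the groups; the filter on low counts then passed 98 or 99 members.

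In the order parental, empty vector, ZBTB18, vehicle, TGF-beta1, M11 and M12, the mitochondrial share was 3.67%, 1.76%, 1.91%, 1.13%, 1.06%, 4.11% and 4.07% of counts with the copies added and 2.83%, 1.92%, 2.01%, 1.26%, 1.18%, 3.48% and 3.49% of TPM. The ratio to nuclear subunits was 1.95, 0.995, 1.15, 0.738, 0.698, 2.43 and 2.42 by counts, 11.8, 8.11, 7.97, 4.40, 4.20, 16.1 and 15.3 by medians over tested genes, and 2.76, 1.93, 2.22, 1.43, 1.34, 3.50 and 3.53 by TPM with the copies. The receptor line was lowest and the metastasis lines highest in each of these.

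Single genes changed sign (log2 change). In M11, Sdhc was at -0.045 and Ndufs1 at -0.079 with the chromosome offset, Ndufs1 at -0.064 with both offsets, and Sdhb at 0.0087 on log2(TPM + 1) and 0.0088 on log2(TPM + 0.1). In M12, Ndufb3 and Cox5b were at -0.032 and -0.085 with the chromosome offset. With empty vector, log2(TPM + 1) and log2(TPM + 0.1) both gave 0.14 for Sdhd, 0.22 for Cox8a, 0.088 for Cox6b1 and 0.21 for Atp5g2, and gave 0.24 and 0.25 for Sdhb (adjusted p = 0.00612 and 0.00798). The length offset gave 0.44 for Atp5g1, 0.26 for Atp5g3, 0.36 for Cox8a, 0.26 for Cox6b1, 0.023 for Cox6a1 and 0.41 for Atp5g2, and both offsets gave 0.24 for Atp5g3, 0.53 for Cox8a, 0.25 for Cox6b1, 0.17 for Cox6a1 and 0.33 for Atp5g2. Depth limits Cox6a2 and Cox7a1, which stayed near or below 1 CPM.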
